A study of Homo sapiens with 4 samples.

Results

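Chromatin accessibility was examined at 36 genes of the interferon response and of nucleic acid sensing, out of 20033 protein-coding genes of the annotation, in HepG2 cells, an established line from a human liver tumor. The genes were a list of 6 sensors and adaptors, 5 STAT and IRF factors, 22 interferon-induced effectors and 3 chemokines. A gene's window was its body in GENCODE release 44 with 10 kb on either side. Every called peak overlapping such a window was taken, and peaks of different libraries that overlapped were joined into 1 region. The 36 windows held 88 regions, out of 53407 in the windows of all protein-coding genes and 80551 in the whole genome, and 6 of the 88 lay in the windows of more than 1 member. The 4 ATAC-seq libraries came from 2 controls and 2 samples given 5 µM tazemetostat for 48 h. Tazemetostat, an inhibitor of the histone methyltransferase EZH2, was dissolved in DMSO. Each library used 50000 cells. The methods describe a DNase pretreatment for the tazemetostat-treated cells and do not name the controls at that step. No allele or transgene is named for either group. The labels do not say that the replicates were grown separately, so p-values measure the spread between these samples, which may be technical.

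Cells detect foreign or misplaced nucleic acids with sensors such as TLR3, cGAS and MDA5, the last encoded by *IFIH1*. MDA5 signals through the adaptor MAVS and cGAS through STING, to the IRF factors and so to the interferon genes. Secreted interferons then act on receptors whose kinases phosphorylate STAT proteins. STAT2 and IRF9 belong to the complex that binds the interferon-stimulated response element (ISRE) in the promoters of the effector genes, while IRF1 is itself induced through the gamma-activated site (GAS). Hepatocytes carry this pathway as a defense against hepatitis viruses.

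Upstream promoter sequences are shown first, because the element on which the pathway converges is written in them. RefSeq promoters (build GRCh38.p14) matched 27 of the 36 members, and the 250 bases before each start were searched on both strands. The ISRE was searched as GAAANNGAAA, with overlapping matches counted separately, and the GAS as TTCNNNGAA, with no account taken of overlap between both motifs. At least 1 ISRE match stood in 16 of the 27 member promoters (59.3%), against 418 of 15345 protein-coding promoters (2.72%). A GAS match stood in 8 of the 27 (29.6%), against 6.09% of all. The ISRE match was found in 13 of 17 effector promoters, 1 of 4 sensor promoters, 0 of 3 factor promoters and 2 of 3 chemokine promoters. A match is a description of the letters and not a measured binding site. The sequences below run 5′ to 3′ on the gene's strand and end at the base before the start. ISRE matches are in capitals, except that in IRF1 the capitals mark its GAS match. IFI6 (chr1:27672193-27672442, minus strand) and IFIH1 (chr2:162318685-162318934, minus) belong to regions that passed the test below, and OAS3 (chr12:112938224-112938473, plus) lay in a region called under tazemetostat only. BST2 (chr19:17405631-17405880, minus) lay in a region with like values in both groups, ISG15 (chr1:1013247-1013496, plus) had no peak at its start, and IRF1 (chr5:132490774-132491023, minus) passed the test without an ISRE match.
IFI6: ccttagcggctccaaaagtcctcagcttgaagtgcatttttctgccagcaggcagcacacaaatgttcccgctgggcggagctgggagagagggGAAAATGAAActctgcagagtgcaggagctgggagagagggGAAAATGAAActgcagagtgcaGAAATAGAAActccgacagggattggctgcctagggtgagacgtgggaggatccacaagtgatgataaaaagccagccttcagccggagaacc
IFIH1: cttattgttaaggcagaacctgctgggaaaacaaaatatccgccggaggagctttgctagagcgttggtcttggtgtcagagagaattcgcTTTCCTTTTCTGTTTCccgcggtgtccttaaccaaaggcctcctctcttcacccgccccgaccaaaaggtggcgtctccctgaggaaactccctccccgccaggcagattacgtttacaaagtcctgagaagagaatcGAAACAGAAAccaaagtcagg
OAS3: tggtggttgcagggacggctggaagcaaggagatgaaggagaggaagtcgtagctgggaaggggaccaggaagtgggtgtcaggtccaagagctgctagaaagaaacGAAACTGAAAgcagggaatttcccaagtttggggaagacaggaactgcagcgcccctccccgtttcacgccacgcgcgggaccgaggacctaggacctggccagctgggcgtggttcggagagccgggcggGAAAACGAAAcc
BST2: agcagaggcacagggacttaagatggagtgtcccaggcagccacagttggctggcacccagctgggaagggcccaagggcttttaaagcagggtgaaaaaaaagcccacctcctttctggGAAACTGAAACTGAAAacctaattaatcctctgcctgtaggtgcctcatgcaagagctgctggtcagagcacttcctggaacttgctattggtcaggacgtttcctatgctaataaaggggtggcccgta
ISG15: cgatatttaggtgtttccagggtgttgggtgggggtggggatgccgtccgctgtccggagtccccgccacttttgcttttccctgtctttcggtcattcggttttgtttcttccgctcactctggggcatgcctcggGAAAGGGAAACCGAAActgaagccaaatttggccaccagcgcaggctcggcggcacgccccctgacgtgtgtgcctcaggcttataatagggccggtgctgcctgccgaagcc
IRF1: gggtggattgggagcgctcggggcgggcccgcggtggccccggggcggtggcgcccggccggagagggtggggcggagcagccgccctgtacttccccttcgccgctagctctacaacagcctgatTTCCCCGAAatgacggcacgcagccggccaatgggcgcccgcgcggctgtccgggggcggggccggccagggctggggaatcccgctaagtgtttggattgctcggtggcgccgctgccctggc

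In *IFI6* the 3 matches ended 146, 105 and 83 bases before the start, and the first pair repeats the same letters. In *IFIH1* the matches at 149 and 143 bases overlap and another ends 11 bases before the start. *BST2* and *ISG15* each hold a pair of overlapping matches, at 120 and 114 bases and at 103 and 97 bases. In *OAS3* the nearer match ended 2 bases before the start. Promoters with the element were found whether or not a peak was called. It stood in 4 of the 8 matched promoters with a region in all 4 libraries, 4 of the 8 with a region in some libraries, and 8 of the 11 with none. These classes use the canonical start and the letters the RefSeq start, which lie 11892 bp apart at *RSAD2* and 5681 bp apart at *MX1*. Both genes were counted without a match, although the region called at the canonical *RSAD2* start held 1. *MX1* was counted as having no region, although a peak of tazemetostat 1 covered its RefSeq start. The median GC content was 58.8%, 56.8% and 40.8% in these 3 classes, against 62.4% over all promoters, so the uncalled promoters had the lowest median. In the central 300 bp of the regions themselves, 11 of the 88 member regions (12.5%) held an ISRE match, against 2.98% of all 78220 regions on the primary chromosomes. Among regions called under tazemetostat only, the match stood in 2 of 12 member regions (16.7%), against 3.2% of all such regions. Among regions called in all 4 libraries it stood in a like share, 3 of 20 member regions (15%), against 2.97%.

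Depth was 17.2 and 23.8 M mapped tags in controls 1 and 2, and 19.8 and 26.6 M in tazemetostat 1 and 2. The libraries gave 26133, 34768, 55313 and 54157 peaks, with 4.32%, 5.69%, 11.51% and 9.81% of tags inside them. The peak caller's fragment length was 200 bp in both controls and 144 bp under tazemetostat, and its local filter discarded 77% and 80% of candidate peaks from controls 1 and 2 but 62.7% and 70.9% from the treated libraries. These settings and the treatment cannot be told apart, and they apply to every result below. As a check of the cell type, the promoters of 5 of 8 hepatocyte markers (*APOA1*, *APOB*, *TTR*, *SERPINA1* and *HNF4A*) had a region in all 4 libraries, whereas *ALB* and *AFP*, which also define these cells, had none in any library. Of the markers of other cell types, a promoter region stood in all libraries at 2 of 5 leukocyte genes (*CD68* and *LYZ*), 0 of 3 endothelial genes and 0 of 4 fibroblast genes. A library values a region by its normalised tag count, the number of tags in the peak per 10 M mapped tags. Where no peak was called there is no value, which does not show closed chromatin. The lowest values listed were 6.4, 5.04, 5.04 and 4.89 in the 4 libraries. A higher tag count over many cells and in a larger share of cells cannot be told apart in bulk samples.

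The member windows held 29 peaks in control 1, 43 in control 2, 71 in tazemetostat 1 and 63 in tazemetostat 2. Both treated libraries lay above both controls, by 31 peaks on average (36 ± 9.9 against 67 ± 5.66, SD, n = 2; exact permutation test, two-sided, p = 0.33, the smallest p that 2 against 2 allows). The peaks covered 11.5 and 18.4 kb in the controls and 32.7 and 28.8 kb under tazemetostat. Tag density inside them was closer, at 38.1, 39.2, 43.7 and 42.5 normalised tags per kb of peak. With each library held to its 26133 highest peaks, the windows held 29, 35, 35 and 37 peaks, so that the mean difference fell to 4 (exact permutation p = 0.6667) and the groups touched. The windows of all protein-coding genes held 19007, 24770, 38322 and 36959 peaks, so treated libraries were also higher there. By role the members had more peaks under tazemetostat in sensors (7, 8, 17 and 13 peaks), factors (9, 8, 15 and 16) and effectors (13, 26, 38 and 33), and in none of these roles did the groups overlap. The chemokine windows held 0, 1, 1 and 1 peak.

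**Figure D1:**
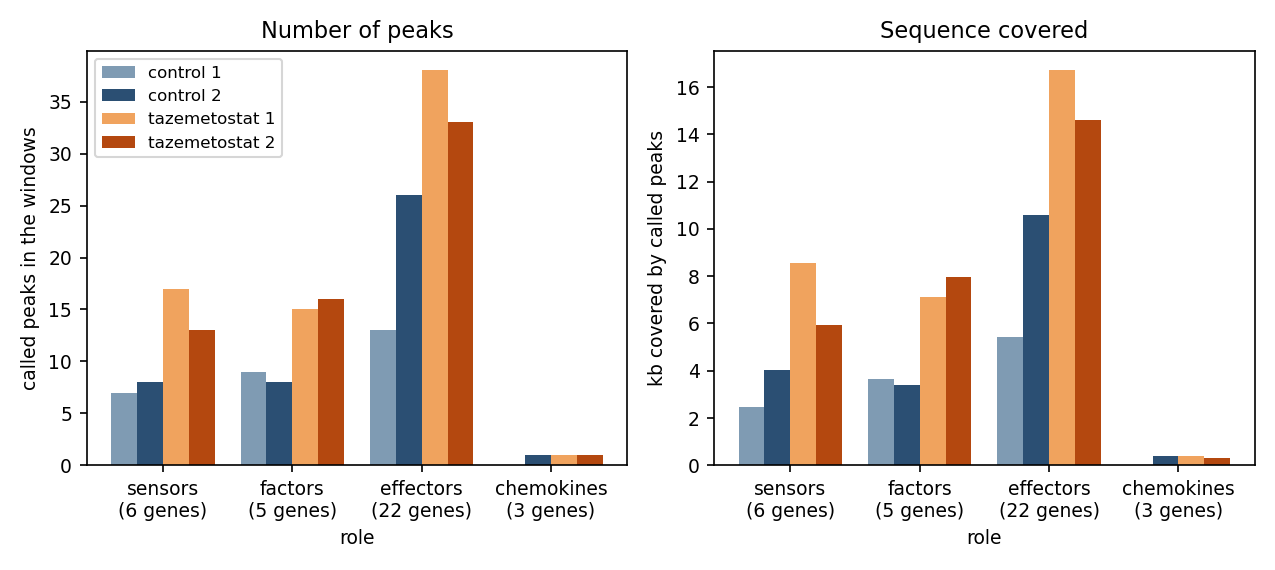
Called peaks (left) and kb covered by them (right) in the windows of the 4 roles, with 1 bar per library and no error bars, since each bar is 1 value. Both tazemetostat bars stand above both control bars for sensors, factors and effectors, and the chemokine windows hold at most 1 peak per library.

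At least 1 region stood in the window of 32 of the 36 members, against 86.8% of protein-coding genes, and the median was 3 regions per window in both sets. *IFI44*, *IFI44L*, *CXCL9* and *CXCL10* had none. The promoter was taken as 1000 bp before to 100 bp after the canonical start, the start of the transcript that the annotation marks as representative. A promoter region was called at 9 and 15 members in the control libraries and at 16 and 17 in the treated ones. Control 1 thus stood apart and control 2 lay close to the treated libraries. Over all protein-coding genes the numbers were 7018, 8349, 10465 and 9895. The promoter region was called in all 4 libraries at 8 members (22.2%), against 31.3% of protein-coding genes, and in none at 15 (41.7%), against 44.2%. Under tazemetostat alone it was called at 1 member, *OAS3* (2.78%), against 5.94%.

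**Figure D2:**
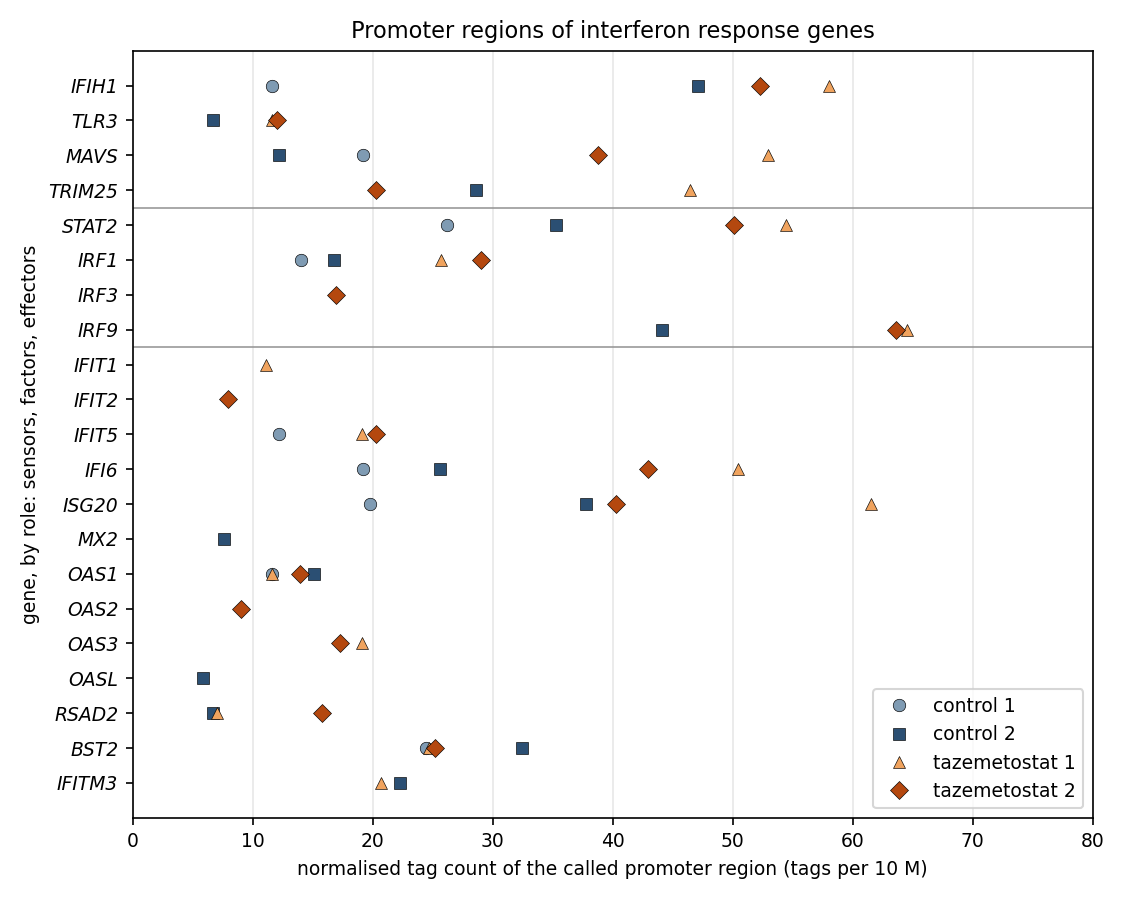
Normalised tag count (x axis, tags per 10 M mapped tags) of the promoter region of the 21 members that had one, with 1 symbol per library in which it was called. A missing symbol means that no peak was called. At IFI6, STAT2 and IRF1 both treated libraries lie to the right of both controls, whereas at OAS1 and BST2 the 4 symbols mix.

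Among the sensors and adaptors, the *IFIH1* promoter region (chr2:162318036-162319227, hg38) had the widest spread between libraries. *IFIH1* encodes MDA5, a cytosolic sensor of long double-stranded RNA, and shares this promoter with the divergent gene *GCA*. Its normalised tag counts were 11.6 and 47.1 in the controls and 58 and 52.3 under tazemetostat. The groups did not overlap, but control 1 lay far below the other 3 libraries. The log2 difference, here and below on log2(normalised tag count + 1), was 1.19 (SE 0.41, limma adjusted p = 0.0311). It was 0.22 without control 1, and 0.43 (limma adjusted p = 0.103) per kb of peak. The peak was 418 bp long in control 1, 1024 bp in control 2, and 1180 and 1092 bp under tazemetostat. *MAVS*, the mitochondrial adaptor of the RNA sensors, had summed promoter values of 19.2, 12.2, 52.9 and 38.8. Both treated values exceeded both controls, but the region held 2 and 3 separate peaks under tazemetostat and was not tested. Per kb of called peak the *MAVS* values were 42.3, 40.7, 54.9 and 43.1, which are closer together.

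The promoters of *TLR3*, the endosomal sensor of double-stranded RNA, and of *TRIM25*, a ubiquitin ligase of the RIG-I pathway, were called in every library except control 1. At *TLR3* the values were 6.72 in control 2 and 11.6 and 12 under tazemetostat, and at *TRIM25* they were 28.6 in control 2 and 46.4 and 20.3 under tazemetostat. At *TLR3* control 2 was the lowest, and at *TRIM25* it lay between the treated libraries. *STING1*, the adaptor of DNA sensing, and *CGAS*, the DNA sensor itself, had no promoter region in any library. A *STING1* region 3670 bp before its start (chr5:139486160-139486697, intergenic) was called under tazemetostat only, at 12.6 and 20. In the *CGAS* window a region was called under tazemetostat only, at 11.6 and 9.41, inside an intron of the neighbor *DDX43*.

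Of the regions tested at factor genes, 3 of 6 were higher under tazemetostat, beside 1 of 2 at sensors, 1 of 8 at effectors and 42.7% of all regions tested. At the *STAT2* promoter (chr12:56359905-56360625) the values were 26.2 and 35.3 in the controls and 54.4 and 50.1 under tazemetostat. The *IRF1* promoter (chr5:132490592-132491197) had 14 and 16.8 in the controls and 25.7 and 29 under tazemetostat. In both, every treated value exceeded every control, with log2 differences of 0.76 (SE 0.30, limma adjusted p = 0.0467) at *STAT2* and 0.79 (SE 0.30, limma adjusted p = 0.0392) at *IRF1*. *IRF1* encodes an activator that acts on many effector promoters. The difference at the *IRF1* promoter was 0.13 (adjusted p = 0.62) per kb of peak, and the peaks there were 376 and 300 bp long in the controls and 491 and 605 bp under tazemetostat. At *STAT2* the peaks were of like length and the difference per kb was 0.78 (adjusted p = 0.00578).

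A second *IRF1* region, 5411 bp before the start (chr5:132495809-132496560, in an intron of a longer annotated transcript), had 20.4 and 17.2 in the controls and 40.3 and 49.3 under tazemetostat. Both treated values stood well above both controls. The log2 difference of 1.21 (SE 0.30, limma adjusted p = 0.0107) was the largest of the member regions tested. Per kb of peak it was 0.45 (limma adjusted p = 0.0853). The peaks were 378 and 300 bp long in the controls and 467 and 725 bp under tazemetostat. The annotated *IRF1* body (chr5:132440440-132508719) is longer than the median member gene of 18.9 kb, so its window covers more sequence. This window held the most regions, 10, with 5, 3, 7 and 9 called per library. It also held 3 of the 12 member regions called under tazemetostat only. These had values of 16.1 and 10.5 (chr5:132455261-132455977), 16.6 and 16.6 (chr5:132466945-132467347), and 16.1 and 13.6 (chr5:132504870-132505271). Their centers stood 35154 and 23627 bp after the canonical *IRF1* start and 14297 bp before it. All 3 lay in introns, also of an overlapping gene without a symbol, and the first 2 also of the antisense gene *IRF1-AS1*.

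The *IRF9* promoter (chr14:24160900-24161483), at the gene of the DNA-binding partner of STAT2, had no peak in control 1. It had 44.1 in control 2 and 64.5 and 63.6 under tazemetostat. These peaks were the densest among member promoters, at 108, 121 and 115 normalised tags per kb, on 105, 128 and 169 tags. Control 2 was the lowest of the 3 libraries with a call, and no fold change was computed for a region without a peak in control 1. At *IRF3*, a factor downstream of the sensors and their adaptors, a promoter peak was called only in tazemetostat 2, at 16.9. A peak of tazemetostat 1 (15.6) was centered 1169 bp after the *IRF3* start. *IRF7*, its interferon-inducible relative, had no promoter region, and the region called under tazemetostat only in its window (10.1 and 16.9) stood at the promoter of the neighbor *CDHR5*.

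Of the effector promoters tested, that of *IFI6* had the largest difference. *IFI6* encodes a small membrane protein of the endoplasmic reticulum and mitochondria. Its promoter region (chr1:27671998-27672725), which holds the 3 ISRE matches shown above, had 19.2 and 25.6 in the controls and 50.4 and 42.9 under tazemetostat. The groups did not overlap, and the log2 difference was 1.04 (SE 0.30, limma adjusted p = 0.017). Per kb of peak it was 0.48 (adjusted p = 0.0705). *ISG20*, an exonuclease gene, had 19.8, 37.8, 61.5 and 40.3. Its region was split into 2 peaks in control 2 and was not tested, and the treated values exceeded both controls.

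At 2 effector promoters called in all libraries the values mixed. *BST2* encodes tetherin, which holds budding virions at the cell surface, and its promoter region (chr19:17405312-17406002) had 24.4 and 32.4 in the controls and 24.7 and 25.2 under tazemetostat. The *OAS1* promoter (chr12:112906667-112907183) had 11.6 and 15.1 in the controls and 11.6 and 13.9 under tazemetostat. The groups overlapped at both, with log2 differences of -0.17 (SE 0.30, limma adjusted p = 0.617) at *BST2* and -0.06 (SE 0.30, limma adjusted p = 0.869) at *OAS1*. With these errors the values do not show that accessibility was equal.

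*OAS1*, *OAS3* and *OAS2* lie next to each other on chromosome 12 and encode enzymes that make 2′-5′-linked oligoadenylates to activate RNase L. Their promoters differed in calls. The *OAS3* promoter region (chr12:112938022-112938683) was called under tazemetostat only, at 19.1 and 17.3 on 38 and 46 tags. The *OAS2* promoter was called in tazemetostat 2 only, at 9.03. An intronic *OAS1* region (chr12:112926392-112926956) was also called under tazemetostat only, at 15.1 and 9.03. Across the 3 windows the controls had single-library calls in an *OAS3* exon (control 1, 8.14) and beyond *OAS2* (control 2, 6.72). The related gene *OASL* had a promoter peak in control 2 only, at 5.88, and an intronic region called in every library at 27.3, 23.9, 40.8 and 42.2, which held several peaks in at least 1 library and was not tested.

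**Figure D3:**
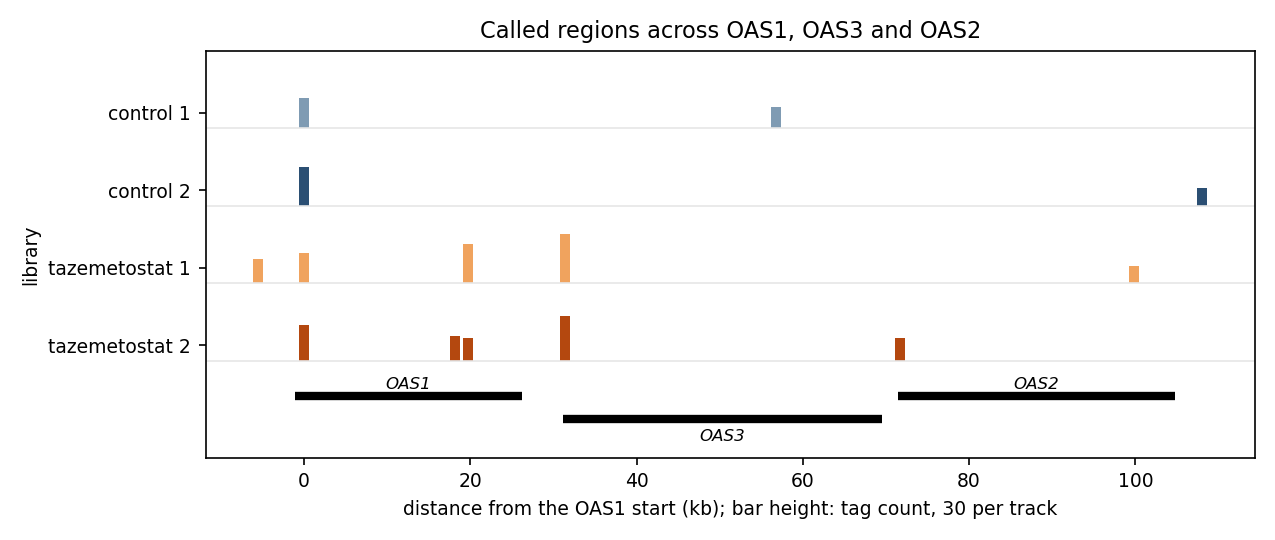
Called regions across OAS1, OAS3 and OAS2, with 1 track per library. The x axis is the distance from the OAS1 start in kb, bar height is the normalised tag count (a full track is 30), bar width is not to scale, and black bars are gene bodies. The region at the OAS1 start is present in all 4 tracks, and the region at the OAS3 start only in the tazemetostat tracks.

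The IFIT genes encode proteins that bind viral RNA and block its translation. The *IFIT1* promoter was called in tazemetostat 1 only (11.1, 22 tags) and that of *IFIT2* in tazemetostat 2 only (7.91, 21 tags). The *IFIT5* promoter was called in control 1 at 12.2 and under tazemetostat at 19.1 and 20.3. At *IFIT3* no region met the promoter definition. A peak of tazemetostat 1 (7.56) was centered 354 bp inside the gene, and a region called under tazemetostat only (chr10:89332077-89332659; 10.1 and 7.53, on 20 tags each) covered a group of internal starts. The first of them lies 4487 bp after the canonical start. The 250 bases before it (chr10:89332234-89332483, hg38, plus strand) are shown because they hold an ISRE match, in capitals, 39 bases before that start. A further match of the region begins in the last bases shown and runs past that start, so it is left in lower case.
IFIT3 internal: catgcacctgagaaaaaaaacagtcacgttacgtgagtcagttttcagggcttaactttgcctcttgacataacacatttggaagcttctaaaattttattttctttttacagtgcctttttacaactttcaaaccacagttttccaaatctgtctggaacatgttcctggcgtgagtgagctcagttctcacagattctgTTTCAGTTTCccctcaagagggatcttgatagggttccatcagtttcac

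Among the other antiviral effectors, *RSAD2*, the gene of viperin, had a promoter region in every library except control 1, at 6.72 in control 2 and 7.05 and 15.8 under tazemetostat. *IFITM3*, whose product restricts viral entry, had one in control 2 (22.3) and tazemetostat 1 (20.7), at like values. *MX2* had one in control 2 only, at 7.56. *MX1* had none at its canonical start, but tazemetostat 1 had a peak of 13.6 at chr21:41420226-41420776, where RefSeq places the *MX1* start, 5681 bp before the canonical one. *IFITM2* had a region centered 296 bp inside the gene in control 2 (13.4) and under tazemetostat (13.1 and 14.7). *ISG15*, a ubiquitin-like modifier, had no promoter peak, and the region 6854 bp before its start had 23.8, 29.8, 33.3 and 35.8 (log2 difference 0.36, SE 0.30, limma adjusted p = 0.28). *IFI27*, *IFITM1* and *XAF1* had no promoter peak either.

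The chemokine genes *CXCL9*, *CXCL10* and *CXCL11*, whose products draw T cells through CXCR3, lie side by side on chromosome 4. None had a promoter region. Their windows held 1 region, in an intron of *ART3* 6967 bp before *CXCL11*, with no peak in control 1, 8.82 in control 2 and 14.6 and 6.4 under tazemetostat. The control value lay between the treated values.

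The tag counts could be tested where each library had exactly 1 peak, at 15383 regions in all and 16 of the members. In limma, 5 of the 16 member regions (31.2%) were higher under tazemetostat, against 42.7% of all regions tested, and 0 were lower (0 also at an unadjusted p under 0.05), against 0.247%. The 5 were the promoters of *IFIH1*, *STAT2*, *IRF1* and *IFI6* and the upstream *IRF1* region. Both treated values exceeded both controls at 11 of 16 member regions, against 81.6% of all, and lay below them at 0, against 1.75%. The median log2 difference was 0.57 over the member regions (range -0.17 to 1.21) and 0.70 over all regions, whose quartiles were 0.48 and 0.92. The mean was higher under tazemetostat at 14 of the 16, against 95.4% of all regions. Only 5 of the 16 lay above the median of all regions. With each library centered on its median over regions, the median of all regions moved to -0.06 and that of the members to -0.19, 12 of the 16 were below 0, and limma called 0 of all 15383 regions in either direction (before adjustment, 468 were higher and 1188 lower with p under 0.05). Relative to the other regions, no call was made. Without tazemetostat 1 or without tazemetostat 2, limma called 0 of all 15383 regions, members included (3238 and 5977 were higher before adjustment with p under 0.05). Without control 1 it called 3237 regions higher, 1 of them a member region, the upstream *IRF1* region.

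**Figure D4:**
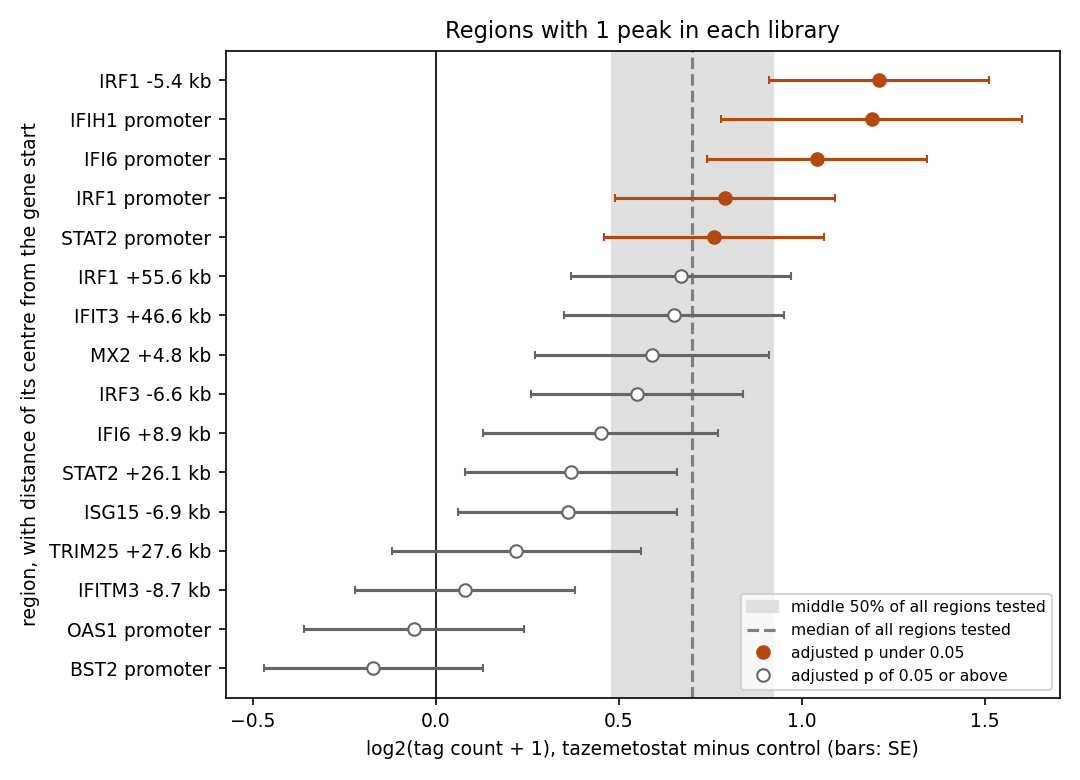
Log2 difference (tazemetostat minus control, on normalised tag count + 1) with its SE for the 16 member regions tested, n = 2 per group. Filled points had an adjusted p under 0.05, the gray band spans the quartiles of all 15383 regions (0.48 to 0.92) and the dashed line is their median (0.70). The upstream IRF1 region, IFIH1 and IFI6 lie beyond the band, and OAS1 and BST2 lie below 0.

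Presence of a peak gave a picture near the background. Of the 88 member regions 20 (22.7%) were called in all 4 libraries, against 23.7% of regions in the windows of protein-coding genes. A further 12 (13.6%) were called in both tazemetostat libraries and neither control, against 13.3%, and 0 in both controls alone, against 0.403%. Regions of the first kind stood in 9 of the 36 windows (25%), against 32.5% of genes, and of the second in 0, against 1.35%. The largest single class besides the shared regions was a call in tazemetostat 1 alone, with 18 regions (20.5%, against 16.6%). Control 1 alone lacked a peak at 13 regions (14.8%, against 11.2%), and control 2 alone at 2 (2.27%, against 2.88%).

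The 12 regions called under tazemetostat only had lower tag counts than the shared ones, as over all protein-coding genes. Their mean normalised tag counts ran from 7.36 to 18.2 with a median of 12.7, against a median of 34.2 for the 20 shared member regions under tazemetostat. In the windows of all protein-coding genes the medians were 11.1 and 31.9. Of the 12, 11 were centered more than 1 kb from a member's canonical start. By position 7 lay in introns, 2 between genes and 3 at a promoter of *OAS3*, *IFIT3* or the neighbor *CDHR5*. Others lay 13293 bp from the *IFI27* start (9.07 and 5.65), in an intron of *IFIT3* and *LIPA* (7.05 and 11.7) and in an intron of *GCA* next to *IFIH1* (7.05 and 12.8). The number depended on the peak lists. It was 3 when every library kept equally many peaks, 4 at a fold of at least 8 over the local background and 7 with windows of 1 kb. Leaving out 1 library removes a requirement of the class, so a rise was built into the rule. The number was then 15 without control 1, 25 without control 2, 24 without tazemetostat 1 and 30 without tazemetostat 2.

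The rest of the pathway was followed in 50 further genes, among them receptors and kinases, sensors, feedback regulators and effectors. A promoter region was called at 15 and 20 of them in the controls and 27 and 25 under tazemetostat, and in all 4 libraries at 11. Over all protein-coding genes the shares were 35% and 41.7% in the controls, 49.4% to 52.2% under tazemetostat, and 31.3% in all 4 libraries. In the windows of the 50 genes 7 of 26 tested regions were higher in limma and 0 lower, against the 42.7% and 0.247% above. The promoter of *IFNGR1*, a subunit of the interferon gamma receptor, had 22.1 and 29.8 in the controls and 50.4 in both treated libraries (log2 difference 0.95, SE 0.30, limma adjusted p = 0.0225). That of *HERC6*, a HECT-type ubiquitin ligase, had 7.56, 19.7, 30.7 and 25.6 (log2 difference 1.13, SE 0.35, limma adjusted p = 0.0218). In both genes the treated values lay above the controls. A promoter region was called under tazemetostat only at 2 of the 50 genes, against 5.94% of protein-coding genes. They were *IFNAR2*, a subunit of the type I interferon receptor (12.1 and 12.4), and *IFNL3*, a type III interferon (20.2 and 12.8). No promoter region was called in any library at the interferon genes *IFNB1*, *IFNL1*, *IFNE* and *IFNK*.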

How the data were processed

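ATAC-seq of HepG2 cells was available as 1 peak list per library, for 2 controls and 2 tazemetostat samples. Per the labels and methods, the authors used Trim Galore 0.6.6 for trimming, Bowtie2 2.3.5.1 for alignment (build hg38) and HOMER 4.11.1 for peaks, called per library without pooling. Per the file headers, 300 bp peaks were stitched into longer ones, with a fold of 4 over the surrounding 10 kb, a maximum of 1 tag per bp and a local p-value of 1.00e-04. The headers give a false discovery rate of 0.001 and the methods 0.05, and the lists were used as deposited. A shift of tags for the transposase is not given in the sources used here.

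As a signal, the authors deposited a normalised tag count, which is tags in the peak per 10 M mapped tags. The deposited ratio, the fold over the local background, served as a filter in 1 alternative. The deposited score, the p-value and the clonal fold were not used. Counts per sample ranged from 17191428 to 26564400 mapped tags. Errors given as SD are the spread between the 2 libraries of a group. Each SE comes from limma, which draws the variance of a region toward that of all regions tested.

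Peaks were joined where they overlapped by at least 1 bp. GENCODE release 44 placed each center in a promoter (from 1 kb before a start to 100 bp after it), an exon, an intron or between genes. Regions with exactly 1 peak per library were tested in limma 3.58.1 (R 4.3.3; lmFit and eBayes) after adding 1 to each normalised tag count and taking log2, with Benjamini-Hochberg adjustment over all regions and a threshold of 0.05. The added 1 makes differences between low values look smaller. The limma step, the joining of peaks and the motif search were checked on simulated data. Group means were compared with an exact permutation test. Tables were handled with Python 3.11.15 and pandas 2.3.3. All members were described by role. Values per library were given for promoter regions, for regions called in 1 group only and for regions past the threshold, and other regions named were chosen after their values were seen. Further pathway genes were named only where their promoter region passed the test or was called in 1 group only, besides the interferon genes without a call. The members and lists were chosen with earlier results of these data known.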

Additional observations from a re-analysis of the deposited data

How the results depend on the processing

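Against 5 member regions higher under tazemetostat, limma called 5 with a pseudocount of 5 and with a mean tag count of at least 20, 2 per kb of peak (*STAT2*, and the exonic *MX2* region, which was not among the 5) and 0 after median centering. Leaving out 1 library gave 0 to 6. The replicate block gave 3 (*IFIH1*, *IFI6* and the upstream *IRF1* region). Same-numbered samples did not deviate together from region to region (correlation -0.00246 over 15383 regions). A shift shared by all regions would not show in this value, so it cannot decide whether the samples were paired. After median centering the difference was -0.00 at *STAT2*, -0.82 at *OAS1* and -0.93 at *BST2*. That of *OAS1* was -0.40 per kb, 0.07 without tazemetostat 1 and ran from -0.23 to 0.12 over the fits without 1 library, and that of *BST2* was 0.09 per kb and ran from -0.36 to 0.03. Lower regions stayed at 0 in each of these alternatives. The 12 regions called under tazemetostat only became 41 when 1 library of a group sufficed, 3 with equal peak numbers, 4 at a local fold of at least 8, 7 with 1 kb windows and 12 with a 50% overlap. Leaving out 1 library gave 15 to 30. It removes a requirement, so a rise was built into the rule here and in the next 2 counts, as also for the 41. The 0 control-only regions became 8, 0, 1, 0 and 0 in the same order, and 0 to 5 without 1 library. The 8 members with a promoter region in all libraries became 1 at a local fold of at least 8, 6 with equal peak numbers and 9 over any coding start, and 8 to 12 without 1 library. The difference in peak number stayed positive, from 4 with equal peak numbers to 38 without control 2. Except where stated in the report, the cause of a change was not tested. edgeR and DESeq2 were planned and not run, because the whole tags worked out from the normalised values did not pass a check of their step size. The promoter and tested regions of the members rest on 12 to 169 tags per library, and positions without a peak have no value.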
